A study of Mus musculus with 6 samples.

Results

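The SLC25 genes encode the mitochondrial carriers, the solute carriers that move metabolites across the inner mitochondrial membrane. Their expression was examined in bone marrow-derived macrophages (BMDMs) kept with or without excess NaCl. Members were the protein-coding genes whose symbol begins with Slc25a and a digit in the authors' annotated table, which gave 41 of its 15903 genes. A further 6 protein-coding genes with such symbols in GENCODE M21 had too few counts for that table (a total under 10), so that 41 of 47 passed this filter. Within this rule no measured value other than the minimum count decided membership, but the members were chosen with earlier results of these data known.

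The BMDMs were grown with the growth factor M-CSF from bone marrow of 3 *Cx3cr1*GFP mice of C57BL/6J background, in which GFP sequence sits in the *Cx3cr1* locus in control and treated cells alike. Cells of each mouse were left unstimulated (control, n = 3) or received 62 mM additional NaCl for 24 h (NaCl, n = 3). Whether the control cells received a change of medium when NaCl was added is not given in the sources used here, so NaCl and such a change cannot be told apart. Polyadenylated RNA from the adherent cells was sequenced without strand information. The ages and sexes of the mice are not given in the sources used here, and all values are RNA levels in cultured cells.

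A mitochondrial carrier is built from tandem repeats of the same fold, sits in the inner membrane and usually exchanges one solute for another. The family supplies the matrix with ADP, phosphate, amino acids and cofactors and lets ATP, citrate, malate and other products leave. In macrophages, citrate and malate that leave the matrix feed lipid synthesis and the cytosolic redox pools, and succinate is known as a metabolite of activation.

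The ADP/ATP carriers *Slc25a5* and *Slc25a4* are close paralogues, and a comparison of their RNA depends on reads being told apart. Their coding sequences have the same length (894 bases without the stop codon) and are 77.4% identical. None (0) of the 820 windows of 75 bases, the read length, is the same in both, and a window holds at least 8 and in the median 16 differences. The 2 stretches below are bases 220 to 294 of each coding sequence and lie in exon 2, at chrX:36796951-36797025 on the plus strand and at chr8:46209326-46209400 on the minus strand of GRCm38 (GENCODE M21). They are the most alike windows that lie within 1 exon of both genes, and are shown because such reads are told apart by these letters alone. Windows across exon junctions can differ at fewer bases. Capitals mark the 11 bases that differ, 10 of them at the third base of a codon.
Slc25a5: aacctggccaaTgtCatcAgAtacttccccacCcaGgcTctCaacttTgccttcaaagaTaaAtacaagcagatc
Slc25a4: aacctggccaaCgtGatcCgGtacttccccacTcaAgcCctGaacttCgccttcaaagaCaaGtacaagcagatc

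*Slc25a5* shares 19.8% of its 75-base windows with 6 genes other than *Slc25a4*, of which *Gm5560* holds the most (11.7%). *Gm5560* itself had between 1 and 12 counts in a library. The dicarboxylate carrier *Slc25a10* overlaps *Gm11788* on the opposite strand over 6.60% of its exonic bases, and *Gm11788* had at most 2 counts in a library. Of the members named here, *Slc25a33* (14.9%, *Gm13068*) and *Slc25a11* (8.92%, *Rnf167*) have larger overlaps with the opposite strand, and reads in these bases could not be assigned by strand.

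Libraries held between 4088065 (NaCl replicate 3) and 20123570 (control replicate 3) counts on genes, of which 0.209% to 0.235% lay on the 41 members. The macrophage genes *Adgre1* and *Cd68*, which mark the labelled cell type, were at 1263 to 1816 and 1196 to 1582 CPM in the 6 libraries. CPM here are edgeR's, scaled by TMM. Every gene was tested with edgeR's quasi-likelihood test at a Benjamini-Hochberg adjusted p under 0.05, in a fit without a mouse term and in one that held the mouse as a replicate block. Both fits are given for the members, since both libraries of a number came from 1 mouse.

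The levels of the members spanned more than 3 orders of magnitude per length, and a few carriers took much of the signal. *Slc25a3*, *Slc25a5* and *Slc25a4* together held between 33.3% and 41.3% of all SLC25 reads of a library. Per kb of the longest coding transcript, the phosphate carrier *Slc25a3* was at 210.0 ± 12.0 CPM per kb in control (mean ± SD, n = 3), and *Slc25a5* at 188 ± 31.2. These 2 overlap in their SD, and no allowance was made for the windows that *Slc25a5* shares with other genes. The paralogue *Slc25a4* followed with 97.5 ± 8.63 CPM per kb and the glutathione carrier *Slc25a39* with 87.9 ± 9.12, which also overlap, and the oxoglutarate carrier *Slc25a11* with 65.6 ± 0.37. In NaCl the same genes were at 221 ± 26.8 (*Slc25a3*), 263 ± 90.2 (*Slc25a5*), 81.7 ± 5.52 (*Slc25a4*), 87.4 ± 7.38 (*Slc25a39*) and 71.1 ± 7.82 CPM per kb (*Slc25a11*). The 5 genes were also the 5 highest when the length of all annotated exons was used instead, with *Slc25a4* then above *Slc25a3*.

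**Figure D1:**
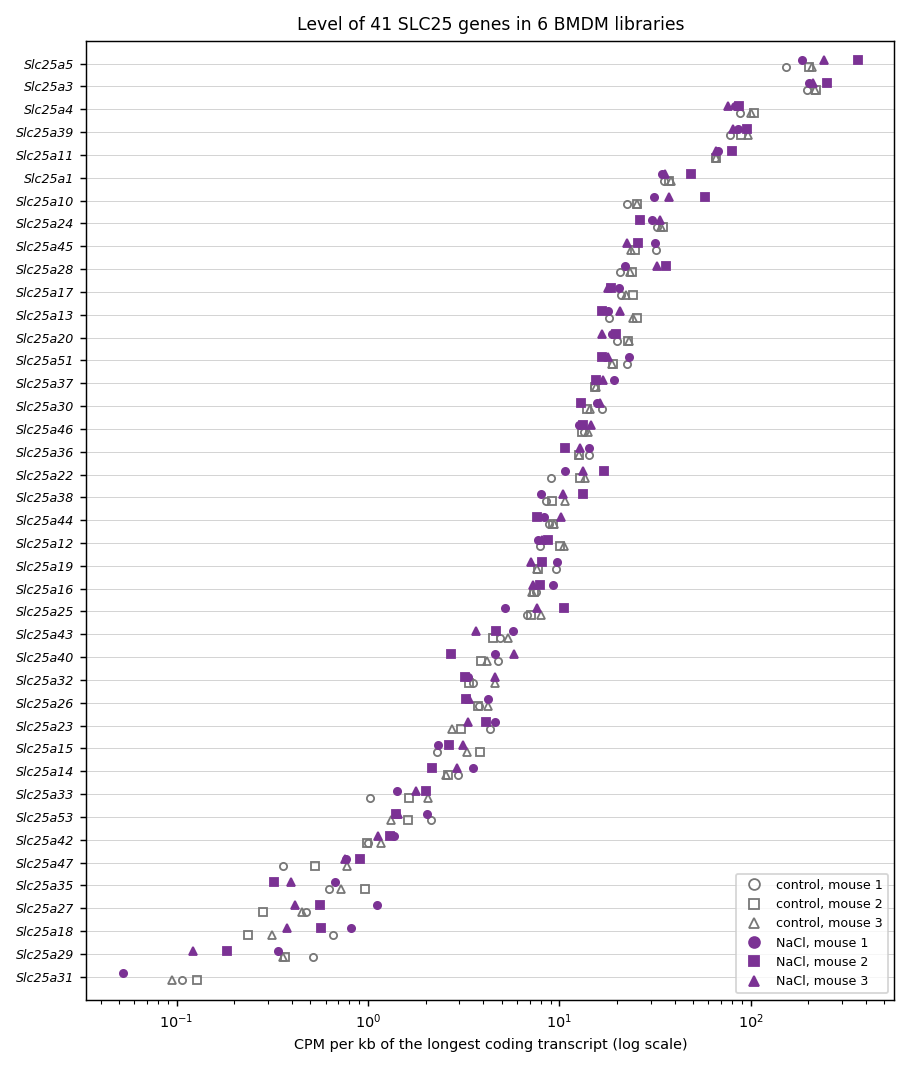
Level of each of the 41 SLC25 genes in CPM per kb of the longest coding transcript (log axis) in the 3 control libraries (open grey) and the 3 NaCl libraries (filled purple), with 1 symbol per mouse and genes ordered by mean level. For most genes the open and filled symbols lie on each other, and the order from *Slc25a5* to *Slc25a31* spans far more than any difference between the groups. The 2 NaCl libraries with no count of *Slc25a31* are not drawn.

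At the other end, 8 members had a mean under 50 counts per library. *Slc25a31*, the ADP/ATP carrier known from the testis, had 2, 3 and 4 counts in control replicates 1, 2 and 3 and 1, 0 and 0 counts in the NaCl replicates, so its level was at the limit of this depth. The 6 genes under the minimum count were *Slc25a2* (7 counts over the 6 libraries), *Slc25a34* (4), *Slc25a54* (2), and *Slc25a21*, *Slc25a41* and *Slc25a48*, which had 0 counts in every library. A count of 0 allows a level of up to 3 counts in a library.

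Most of the family did not differ detectably between NaCl and control BMDMs. Without the mouse term, 0 of the 41 members passed in the quasi-likelihood test of edgeR, where 0.654% of all genes passed (0.478% higher and 0.176% lower). An unadjusted p under 0.05 was found for 1 member without the block, beside 2010 of all 15903 genes, and for 6 with it, beside 3507. With the mouse as a replicate block, 2 of 41 passed, *Slc25a10* and *Slc25a5*, both higher in NaCl, where 8.90% of all genes passed (4.60% higher and 4.30% lower). That share of members (4.88%) was not above the background. Among genes with a mean of at least 50 counts, the share with the block was 6.06% of members and 12.5% of all genes. DESeq2 called 1 member higher and 0 lower when the block was left out, where it called 2.52% of all genes (1.54% higher and 0.975% lower). Given the block, it called 2 higher and 0 lower, where it called 5.07% of all genes (2.84% higher and 2.23% lower). The median log2 fold change of the 41 members was -0.0036, beside -0.0065 for all genes tested.

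The intervals show the precision of these values. In the fit without the mouse term, the 95% interval of the fold change lay within a 2-fold change for 34 of the 41 members, beside 60.0% of all genes, and within 1.5-fold for 21, beside 31.8%. With the block the numbers were 34 (beside 64.9% of all genes) and 28 (beside 43.8%). Of the 33 members with a mean of at least 50 counts, 32 had an interval within 2-fold in either fit, and the exception was *Slc25a10*. Among all genes with such a mean the shares were 89.5% without and 95.1% with the block. The median absolute log2 fold change of these 33 genes was 0.12, beside 0.18 for all 9924 genes with such a mean. The 8 members under 50 counts had wider intervals, and 2 of them lay within 2-fold. Their fitted log2 fold changes, from -2.18 to 0.84, rest on few reads.

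**Figure D2:**
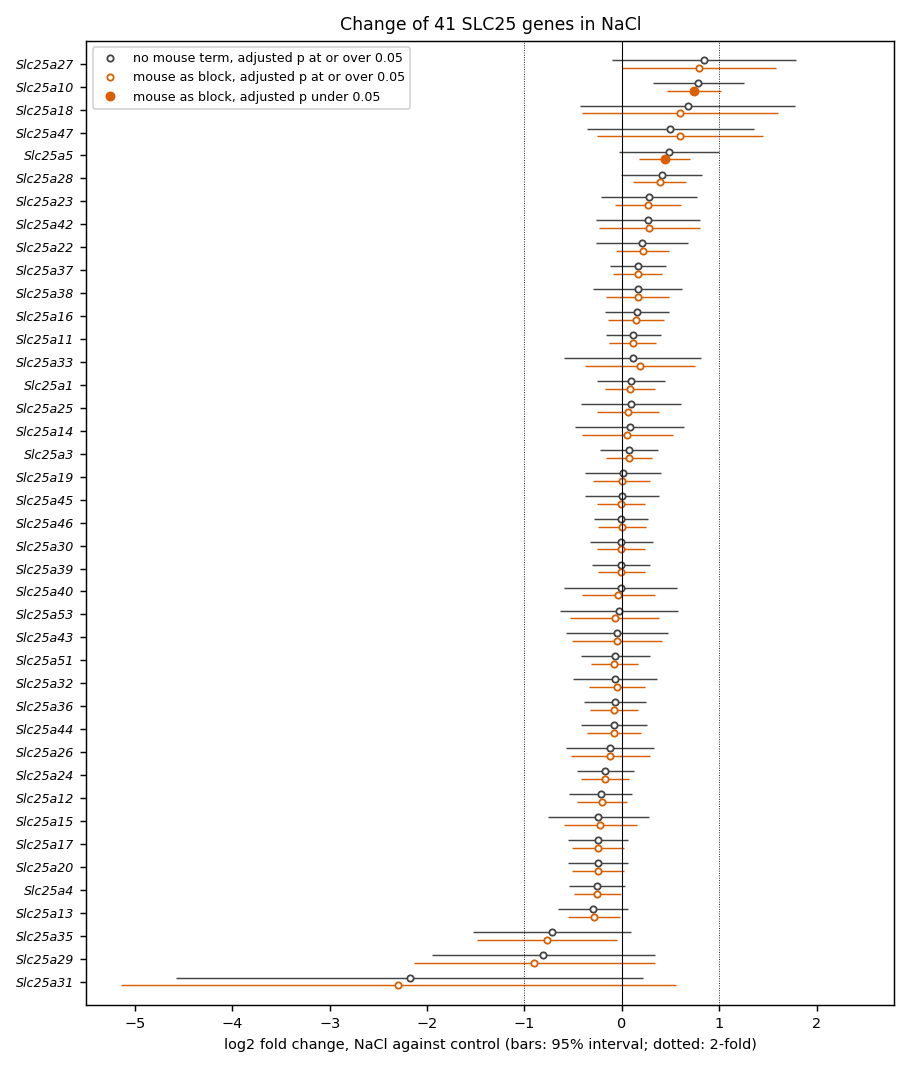
Log2 fold change (NaCl against control) of the 41 SLC25 genes with its 95% interval, from the edgeR fit without a mouse term (dark grey) and from the fit with that term (orange), with filled symbols where the adjusted p is under 0.05 and dotted lines at 2-fold. Only *Slc25a10* and *Slc25a5* carry filled symbols, and only with the block. The widest intervals belong to genes with few reads, such as *Slc25a31*.

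The ranges of the 3 control and 3 NaCl libraries in CPM did not overlap for 3 members that were higher in NaCl (*Slc25a10*, *Slc25a11* and *Slc25a37*), beside 8.92% of all genes. They did not overlap for 5 that were lower (*Slc25a4*, *Slc25a17*, *Slc25a20*, *Slc25a29* and *Slc25a31*), beside 10.1% of all genes. Both together made 8 of 41 members, beside 19.0% of all genes, so the members were near the background. Among the lower ones, *Slc25a29* (9, 8 and 14 counts in control and 6, 4 and 1 in NaCl replicates 1, 2 and 3) and *Slc25a31* had few reads. Of the members with a mean of at least 50 counts, 3 were higher and 3 lower without overlap. In all 3 mice, 8 members were higher, beside 20.1% of all genes, and 9 were lower, beside 23.4%, which is again near the background. The summed level of the family was 2024, 2193 and 2214 CPM in control replicates 1, 2 and 3 and 2105, 2469 and 2168 CPM in the NaCl replicates, so the groups overlapped. Without *Slc25a5* and *Slc25a10* the sum was 1860 ± 62.3 CPM in control and 1837 ± 59.3 in NaCl (n = 3 each).

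Among the carriers of di- and tricarboxylates, keto acids and the uncoupling-type carriers, of which 7 of 9 were tested, 1 rose and 0 fell with the block. *Slc25a10* (ENSMUSG00000025792.10, chromosome 11) encodes the dicarboxylate carrier, which exchanges malate and succinate for phosphate and other anions. It was at 45.6, 51.2 and 51.3 CPM in control replicates 1, 2 and 3 and at 63.1, 116 and 75.2 CPM in NaCl replicates 1, 2 and 3. Every NaCl library lay above every control library, and NaCl replicate 2 was the highest. On the log2 scale the difference was 0.79 (standard error, SE, 0.21, edgeR adjusted p = 0.153), a fold of 1.72 with a 95% interval from 1.25 to 2.38. With the block it was 0.74 (SE 0.14, adjusted p = 0.000533 in edgeR). DESeq2, run without it, gave 0.80 (adjusted p = 0.0272). It was higher in 3 of 3 mice, by 1.38-fold, 2.27-fold and 1.47-fold in mice 1, 2 and 3. Leaving out mouse 2, where the difference was largest, gave a log2 fold change of 0.52 with the block (adjusted p = 0.000364 in edgeR).

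The other carriers of that list did not pass in either fit. *Slc25a11*, which exchanges oxoglutarate for malate in the malate-aspartate shuttle, was at 112 ± 0.633 CPM in control and 122 ± 13.4 in NaCl. The count of *Slc25a10* over that of *Slc25a11* was 0.408, 0.453 and 0.458 in the control and 0.549, 0.847 and 0.665 in the NaCl replicates, without overlap, a ratio that was formed after the values were seen. The citrate carrier *Slc25a1*, which supplies acetyl groups for lipid synthesis, was at 61.7 ± 2.39 and 65.7 ± 13.3 CPM. Of 5 enzymes that make or use citrate and its products, 1 was higher with the block, *Idh1* (log2 fold change 0.57, adjusted p = 0.00164 in edgeR). The other 4 did not pass. In the same fit *Cs*, *Acly*, *Aco1* and *Me1* had log2 fold changes of 0.17, -0.05, -0.26 and -0.25 (adjusted p = 0.437, 0.875, 0.192 and 0.426 in edgeR), and *Aco1* and *Me1* were lower in 3 of 3 mice.

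Of the carriers of nucleotides, phosphate and cofactors, 16 of 18 were tested, and 1 rose and 0 fell with the block. *Slc25a5* (ENSMUSG00000016319.4, chromosome X), the ADP/ATP carrier of dividing cells, was at 189, 251 and 260.5 CPM in control replicates 1, 2 and 3 and at 230.2, 449 and 299 CPM in the NaCl replicates. The groups overlapped, since NaCl replicate 1 lay below control replicates 2 and 3, although each NaCl library was above the control of its mouse. On the log2 scale it differed by 0.48 (SE 0.23, edgeR adjusted p = 0.426) and with the block 0.44 (SE 0.13, adjusted p = 0.0264 in edgeR). The folds within mice 1, 2 and 3 were 1.22, 1.79 and 1.15. With the block and without mouse 1 or without mouse 2, the adjusted p was 0.0967 and 0.0934 in edgeR, and the log2 fold change without mouse 2 was 0.25.

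*Slc25a4* (ENSMUSG00000031633.5, chromosome 8), the ADP/ATP carrier of muscle and heart, was at 169, 201 and 193 CPM in control and at 160, 167 and 146 CPM in NaCl. The NaCl libraries all lay below the control libraries, and the log2 fold change of -0.25 did not pass in either fit (adjusted p = 0.446 in edgeR's test and 0.201 with the block). The paralogues thus had fold changes of opposite sign. For each *Slc25a4* read there were 1.12, 1.25 and 1.35 *Slc25a5* reads in the control libraries of mice 1, 2 and 3, against 1.44, 2.70 and 2.05 in their NaCl libraries, without overlap. This ratio, too, was formed after the values were seen. The phosphate carrier *Slc25a3*, which brings in the phosphate for ATP synthesis, was at 339 ± 19.3 CPM in control and 357 ± 43.2 in NaCl (log2 fold change 0.08, 95% interval from -0.22 to 0.37).

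**Figure D3:**
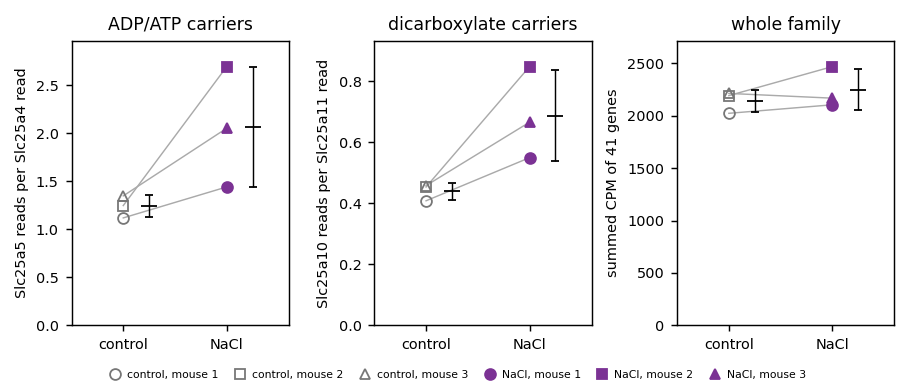
*Slc25a5* reads per *Slc25a4* read, *Slc25a10* reads per *Slc25a11* read, and summed CPM of the 41 SLC25 genes in each library (1 symbol per mouse, grey lines join a mouse, bars are mean and SD of 3, axes start at 0). Both ratios, which were formed after the values were seen, are higher in every NaCl library than in every control library. Mouse 2 has the highest ratios in NaCl, and the sums of the family overlap.

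No other member of the nucleotide and cofactor list passed in either fit. *Slc25a17*, a peroxisomal member of the family, was at 36.4, 41.9 and 38.4 CPM in control and at 35.4, 31.9 and 30.9 CPM in NaCl, without overlap (log2 fold change -0.25, adjusted p = 0.503 without and 0.276 with the block in edgeR). The calcium-regulated ATP-Mg/phosphate carriers *Slc25a24*, *Slc25a25* and *Slc25a23* had log2 fold changes of -0.17, 0.09 and 0.28 (adjusted p = 0.651, 0.91 and 0.655 from edgeR). *Slc25a25* differed between mice, with log2 ratios of -0.38, 0.56 and -0.07 in mice 1, 2 and 3. The pyrimidine nucleotide carriers *Slc25a36* and *Slc25a33* were at 69.1 ± 4.90 and 2.97 ± 0.981 CPM in control and 65.8 ± 9.45 and 3.28 ± 0.566 in NaCl. Of 3 enzymes of mitochondrial pyrimidine supply, *Tk2* (thymidine kinase of the matrix) was lower and *Cmpk2* (a nucleotide monophosphate kinase) higher with the block, with log2 fold changes of -0.53 and 0.69 (adjusted p = 0.00932 and 0.0101 in edgeR). In DESeq2 with the block *Cmpk2* did not pass (adjusted p = 0.0655).

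Of the carriers of amino acids, carnitine and glutathione, 11 of 12 were tested and 0 passed in either fit. With the block, 1 of these had an unadjusted p under 0.05, beside 3507 of all 15903 genes. That gene was *Slc25a13*, an aspartate/glutamate carrier of the malate-aspartate shuttle. It was at 56.4, 79.5 and 75.6 CPM in control and at 56.3, 51.9 and 64.7 CPM in NaCl, with overlapping groups and a log2 fold change of -0.30 (adjusted p = 0.491 in edgeR's test and 0.184 with the block). Its paralogue *Slc25a12* was at 60.4 ± 8.69 and 52.1 ± 3.22 CPM (log2 fold change -0.22, adjusted p = 0.595). The 4 enzymes of that shuttle, *Got1*, *Got2*, *Mdh1* and *Mdh2*, had log2 fold changes from 0.03 to 0.13, and 0 of 4 passed in either fit.

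The carnitine/acylcarnitine carrier *Slc25a20*, which admits long-chain fatty acids for oxidation, was at 39.1 ± 3.08 CPM in control and 32.9 ± 2.70 in NaCl. Its groups did not overlap, but the log2 fold change of -0.25 did not pass (adjusted p = 0.511 in edgeR's test and 0.285 with the block). The glutathione carrier *Slc25a39* was at 148 ± 15.4 and 147 ± 12.4 CPM, with a 95% interval of the log2 fold change from -0.30 to 0.29, and its paralogue *Slc25a40* at 11.9 ± 1.28 and 12.1 ± 4.31. *Gclm*, a subunit of the first enzyme of glutathione synthesis, was lower with the block (log2 fold change -0.64, adjusted p = 0.00443 in edgeR). *Slc25a32*, which carries folate into the matrix, had a log2 fold change of -0.07 (95% interval from -0.50 to 0.36), whereas *Mthfd2*, an enzyme of folate metabolism inside it, was at 89.5 ± 23.5 in control and 43.2 ± 9.27 in NaCl. *Mthfd2* had a log2 fold change of -1.05 (adjusted p = 0.0811) without and of -1.04 (adjusted p = 2.1e-06) with the block in edgeR. DESeq2 without the block called it lower as well (adjusted p = 0.00219).

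Of the iron carriers and members of other function, 7 of 8 were tested and 0 passed in either fit. The mitoferrin *Slc25a28* was at 31.8, 36.6 and 36.1 CPM in control and at 33.6, 55.5 and 49.8 CPM in NaCl. It was higher in 3 of 3 mice with overlapping groups, and its log2 fold change of 0.41 did not pass (adjusted p = 0.41 without and 0.064 with the block in edgeR). The other mitoferrin, *Slc25a37*, known from red cell precursors, was at 64.2 ± 0.885 and 72.1 ± 7.70 CPM (log2 fold change 0.17, adjusted p = 0.644). Of 6 enzymes of haem and iron-sulphur cluster synthesis, 1 was higher with the block, the scaffold gene *Iscu* (log2 fold change 0.42, adjusted p = 0.0361 in edgeR, but 0.105 in DESeq2 with the block). *Alas1*, the first enzyme of haem synthesis, was also higher with the block (log2 fold change 0.50, adjusted p = 0.00779). It uses glycine, the solute of *Slc25a38*, which was at 16.9 ± 2.01 and 18.9 ± 4.63 CPM.

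**Figure D4:**
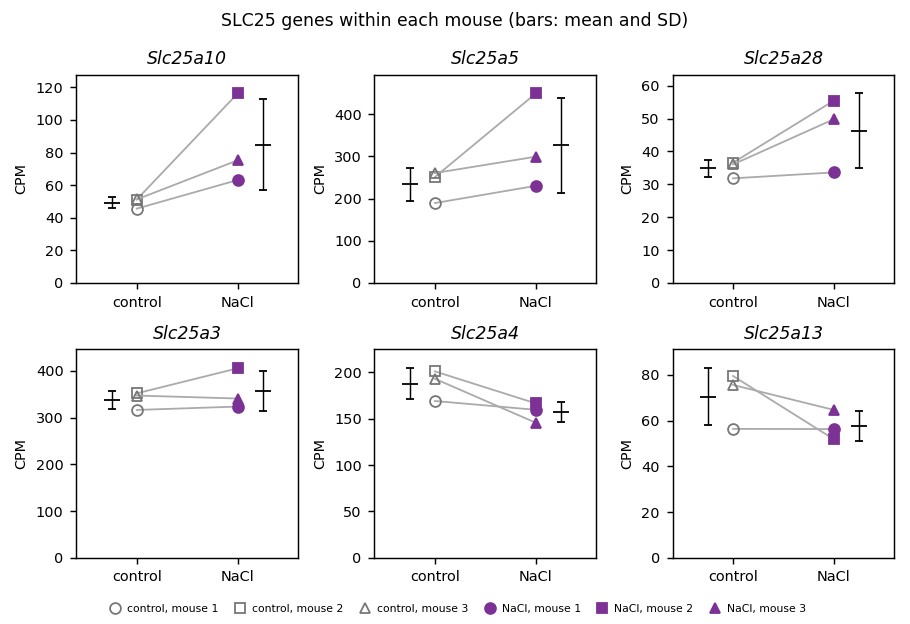
CPM of 6 SLC25 genes in control (open grey) and NaCl (filled purple) libraries, joined within each mouse, with mean and SD of 3 beside them (axes start at 0). *Slc25a10*, *Slc25a5* and *Slc25a28* are higher in NaCl in every mouse, most in mouse 2. *Slc25a4* and *Slc25a13* are lower in every mouse, *Slc25a13* hardly so in mouse 1, and *Slc25a3* is mixed. The groups overlap for *Slc25a5*, *Slc25a28*, *Slc25a3* and *Slc25a13*, but not for *Slc25a10* and *Slc25a4*.

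Proteins of the same family under other symbols were measured beside the members. *Ucp2*, a carrier abundant in macrophages and named for uncoupling, was at 274 ± 44.7 CPM per kb in control and 281 ± 42.6 in NaCl, with a log2 fold change of 0.04 (adjusted p = 0.958 in edgeR's test and 0.901 with the block). The outer membrane proteins *Mtch1* and *Mtch2*, divergent members of the fold, had log2 fold changes of 0.30 and 0.14 (adjusted p = 0.546 and 0.732 in edgeR). Of 5 such genes, 4 were tested and 0 passed in either fit.

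New carrier proteins reach the inner membrane through the TOM pore, the small TIM chaperones and the TIM22 complex. Of 16 genes of this import path, 15 were tested, 0 passed in either fit, and the median log2 fold change was 0.001. Of 24 other mitochondrial membrane transporters, 2 rose and 1 fell with the block in edgeR (12.5%). The share over all genes in that fit was 8.90%, and 12.5% over genes with a mean of at least 50 counts. Without the block edgeR called 0 of these transporters and DESeq2 called 1 higher. *Sfxn5*, a sideroflexin, was at 18.6 ± 1.41 CPM in control and 30.3 ± 4.74 in NaCl (log2 fold change with the block 0.69, adjusted p = 0.00279 in edgeR). *Letm1*, a cation exchanger gene of the inner membrane, had a log2 fold change of 0.53 and *Tmem65* of -0.47 with the block. Of 14 genes of mitochondrial biogenesis 0 passed in either fit, with a median log2 fold change of 0.12. Of the 35 enzymes on either side of the carriers, 4 rose and 3 fell with the block (20%), all of them named above. The share was 8.90% over all genes and 12.5% over genes with a mean of at least 50 counts. This list was chosen with earlier results of these data known. Without the block edgeR called 0 of these enzymes and DESeq2 called 1 lower, *Mthfd2*. For the lists in which edgeR called 0 genes, DESeq2 also called 0 in both fits. The numbers with an unadjusted p under 0.05 in edgeR without and with the block were 0 and 0 for the import path and 1 and 4 for biogenesis. They were 0 and 1 for the family proteins under other symbols, 0 and 1 for the iron carriers, and 0 and 1 for the amino acid carriers. Over all 15903 genes the numbers were 2010 and 3507.

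Genes of cell division were also higher in NaCl. Of 4 such genes (*Mki67*, *Top2a*, *Ccnb1* and *Cdk1*), 4 were higher with the block and 1, *Ccnb1*, without it in edgeR. Over all genes, edgeR called 4.60% higher and 4.30% lower with the block, and 0.478% higher and 0.176% lower without it. The summed level of the 4 genes was 744 to 820 CPM in control and 1120 to 1457 CPM in NaCl. Their median log2 ratio within mice 1, 2 and 3 was 0.50, 0.66 and 0.83. Of 9 neutrophil markers, 2 were lower and 0 higher with the block in edgeR and 0 passed without it or in DESeq2, and their sum ranged from 247 to 539 CPM in control and from 268 to 390 CPM in NaCl. The 6 dendritic cell markers summed to at most 4.44 CPM, and none of them passed. The B cell, T cell, erythroid and stromal lists summed to at most 2.12 CPM, with 1 of 4, 0 of 3, 1 of 5 and 2 of 4 genes over the minimum count, and *Cd3e* had no count in any library. Of 8 macrophage genes, 3 were higher (*Lyz2*, *Cd14* and *Csf1r*) and 1 was lower (*Mertk*) with the block, against 2 higher and 0 lower without it in edgeR, and their sum was 14923 to 16344 CPM in control and 23681 to 31334 CPM in NaCl. The part of these cells and genes in the levels of the carriers was not tested. In such bulk samples, fewer cells of a kind and less RNA per cell cannot be told apart.

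Promoter sequences from RefSeq (GRCm38.p6) were found for 32 of the 41 members. Those of *Slc25a10* and *Slc25a5*, the members past the threshold with the block, and of *Slc25a4* are shown as the 250 bases before the start, with capitals for any of the motifs searched. They lie at chr11:120491587-120491836 on the plus strand, chrX:36795347-36795596 on the plus strand and chr8:46211063-46211312 on the minus strand.
Slc25a10: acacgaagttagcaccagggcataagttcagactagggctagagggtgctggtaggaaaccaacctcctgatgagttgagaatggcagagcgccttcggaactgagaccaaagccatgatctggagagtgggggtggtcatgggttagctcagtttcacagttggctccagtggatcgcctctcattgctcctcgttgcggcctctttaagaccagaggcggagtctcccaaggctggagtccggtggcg
Slc25a5: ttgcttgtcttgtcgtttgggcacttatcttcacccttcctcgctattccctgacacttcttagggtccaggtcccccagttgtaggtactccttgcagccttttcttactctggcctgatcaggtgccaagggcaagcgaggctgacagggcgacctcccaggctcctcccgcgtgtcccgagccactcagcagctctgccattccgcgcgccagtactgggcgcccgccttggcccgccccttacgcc
Slc25a4: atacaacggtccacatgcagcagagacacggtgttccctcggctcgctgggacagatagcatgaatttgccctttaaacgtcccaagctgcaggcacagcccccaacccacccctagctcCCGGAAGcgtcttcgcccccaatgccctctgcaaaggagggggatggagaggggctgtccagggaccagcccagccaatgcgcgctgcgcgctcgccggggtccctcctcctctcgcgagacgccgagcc

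The motifs were searched on both strands of the 300 bases around the start. The core TGGAAA, which NFAT5 and other NFAT factors bind, was present for 6 of the 32 members (18.8%, beside 23.9% of 27025 genes with a promoter). The motif of NRF1 was present for 2 (6.25%, beside 5.19%), the ETS motif CCGGAAG for 6 (18.8%, beside 9.93%), the ATF4 composite motif TGATGNAA for 0 (beside 4.51%) and the E-box CACGTG for 7 (21.9%, beside 8.09%). None of these letters occurred in the windows of *Slc25a10* and *Slc25a5*, and the ETS motif occurred in that of *Slc25a4*. These are matches of letters, which say nothing on whether a factor binds. The 27025 genes were not limited to those tested here, so the shares beside the members are not from matched genes.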

How the data were processed

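RNA-sequencing covered BMDMs of 3 mice, each as control and after NaCl. Single-end reads of 75 bp were trimmed by the authors (fastp 0.20.0) and counted on genes (STAR 2.7.10b). One deposited table holds raw counts. The other deposited table holds a normalized signal, made by the authors by dividing each count by its library's size factor from DESeq2, as a comparison of both tables showed. The methods name mm10 together with an annotation of another build, so member positions are given by chromosome, and sequences by their own build.

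For the tests here, edgeR 4.0.16 (R 4.3.3) was run on the raw counts. Genes needed 10 counts or more in total and were fitted with TMM normalization and tested with glmQLFit and glmQLFTest, NaCl against control, with p-values adjusted over all 15903 genes by the Benjamini-Hochberg method (threshold 0.05). Standard errors are the log2 fold change over the square root of F, and intervals use the t distribution with the fit's degrees of freedom. These degrees of freedom include those gained by sharing variance across genes, so p-values and intervals rest partly on other genes. The labels give the same mouse numbers in both groups, and the samples were paired by these numbers. Deviations of same-numbered libraries from the group means correlated across genes (0.43, 0.15 and 0.22, beside -0.35 to 0.12 for other pairs). The value of number 2 (0.15) was close to the highest of the other pairs (0.12). These correlations cannot tell the mouse from anything else that libraries of a number share. The 18 alternatives were DESeq2 1.42.0, the mouse as a block in either tool, other size factors, other filters, thinning to the smallest library, and leaving out each library or mouse. Total counts ranged from 4088065 to 20123570 per library. CPM come from edgeR, lengths and shared windows from GENCODE M21, in which all 41 members were found by identifier. Log2 ratios within a mouse use a prior count of 2.

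Members, lists and the rule for named genes were chosen with earlier results of these data known. The rule names members past the threshold in either fit, the 5 highest per kb, the 3 largest rises and falls among members whose mean reached 50 counts, and close paralogues, which gave 17 genes. Further members (such as *Slc25a1*, *Slc25a31*, *Slc25a32*, *Slc25a38*) and enzymes of the same step that did not pass were named after their values were seen. The scripts were tested on simulated data. Tables and plots were made with Python 3.11.15 (pandas 2.3.3, matplotlib 3.10.9).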

Additional observations from a re-analysis of the deposited data

How the results depend on the processing

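Against 0 members higher without the mouse term, the mouse as a replicate block gave 2 in edgeR and 2 in DESeq2, DESeq2 alone 1, a minimum total count of 1 gave 1, thinning every library to 4088065 counts together with the block gave 1, and the fits without 1 library gave from 0 to 1. With the block and 1 mouse left out, 1 to 2 were higher. The number lower was 0 in all 18 alternatives. The cause of these differences was not tested. *Slc25a10* passed in 9 of 18 alternatives and in 3 of 3 fits with the block that left out 1 mouse, with log2 fold changes from 0.49 to 0.97 over all alternatives (adjusted p in edgeR or DESeq2 from 1.32e-05 to 0.517). Without NaCl replicate 1 it passed without the block too (0.97, adjusted p = 0.0446 in edgeR), and without NaCl replicate 2 its log2 fold change was lowest. *Slc25a5* passed in 3 of 18, with log2 fold changes from 0.18, without NaCl replicate 2, to 0.685, without NaCl replicate 1, and with thinning and the block its adjusted p was 0.0507 in edgeR. The median over the members was 0.028 after thinning and ranged from -0.025 to 0.0697 across the fits without 1 library and from 0.001 to 0.0375 across those with the block that left out 1 mouse.

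Of 306 alternative values of the 17 named members, 27 had the opposite sign, all in 6 genes. *Slc25a39*, at -0.01, was at 0.003 in DESeq2, 0.006 in DESeq2 with the block, 0.003 with median-ratio size factors, 0.008 with filterByExpr, 0.014 after thinning and 0.015 after thinning with the block. *Slc25a40*, also at -0.01, was at 0.007 in DESeq2, 0.001 with median-ratio size factors, 0.006 with total count scaling, 0.006 with filterByExpr, 0.029 after thinning and 0.015 after thinning with the block. Across the 6 fits without 1 library, the log2 fold change of *Slc25a3* ranged from -0.021 to 0.145, of *Slc25a25* from -0.210 to 0.330, of *Slc25a33* from -0.091 to 0.389, of *Slc25a36* from -0.174 to 0.045, of *Slc25a39* from -0.080 to 0.075 and of *Slc25a40* from -0.232 to 0.270. Across the 3 fits with the block and without 1 mouse, it ranged from -0.219 to 0.273 for *Slc25a25*, from -0.108 to 0.011 for *Slc25a36*, from -0.065 to 0.124 for *Slc25a39* and from -0.269 to 0.201 for *Slc25a40*. The other 11 named members kept their sign throughout. Of the 8 members with a mean under 50 counts, 2 had an interval within 2-fold. Over all genes, the number past the threshold was 104, against 1416 with the block, 400 in DESeq2 and 806 in DESeq2 with the block, and 362 higher and 300 lower with a minimum total count of 1.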
